A study of Homo sapiens with 24 samples.

Results

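The genes described here are 10 type I MAGE genes, a family of cancer-testis antigens, taken as a list of symbols: MAGEA1, MAGEA3, MAGEA4, MAGEA6, MAGEA12, MAGEB1, MAGEB2, MAGEB6, MAGEC1 and MAGEC2. Their transcript rows were summed to genes, and all 10 had rows among the 52994 genes that could be built from the tables. The study sequenced ribosomal-RNA-depleted, stranded RNA of 2 human acute myeloid leukaemia (AML) cell lines, ELF-153 and UCSD-AML1. Cells received 100 nM decitabine (DAC) on 4 consecutive days with a daily change of medium, or were left untreated. All cultures, untreated ones included, grew in RPMI medium with 20% serum and 5 ng/ml GM-CSF, a myeloid growth factor, and were harvested at 96 h or 144 h. There were 8 groups with 3 libraries apiece, 24 in all: ELF-153 with DAC and ELF-153 untreated, UCSD-AML1 with DAC and UCSD-AML1 untreated, at each harvest. The 3 libraries of a group are described as technical triplicates, and p-values therefore reflect library-to-library spread, not spread between independent experiments. Each group is a culture of a single established line.

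Type I MAGE genes lie in clusters on the X chromosome and fall into the MAGE-A, MAGE-B and MAGE-C subfamilies. In adults they are normally expressed in germ cells of the testis, and in most other tissues their promoters are methylated at CG dinucleotides and silent. Many tumours express them, and peptides of MAGE proteins shown on the cell surface are recognised by T cells. The proteins share a MAGE homology domain through which several of them bind RING ubiquitin ligases, such as TRIM28, and direct them to new substrates. DAC is built into DNA in place of deoxycytidine, where it traps DNA methyltransferases and leaves newly made strands unmethylated. MAGE genes are among the classic genes that hypomethylating agents switch on.

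The stretches just before the gene starts are shown because CG methylation there is the known switch of these genes. They come from the RefSeq promoter table (GRCh38.p14), end before the start of the gene in GENCODE release 29, and have every CG dinucleotide in capitals. The table had entries for 9 of the 10 genes. The stretches lie at chrX:30215313-30215559 (MAGEB2, plus strand), chrX:26192190-26192439 (MAGEB6, plus strand), chrX:30243481-30243729 (MAGEB1, plus strand), chrX:141903644-141903893 (MAGEC1, plus strand), chrX:142205291-142205540 (MAGEC2, minus strand) and chrX:152769748-152769939 (MAGEA6, minus strand), each written 5′ to 3′ on the gene's own strand.
MAGEB2: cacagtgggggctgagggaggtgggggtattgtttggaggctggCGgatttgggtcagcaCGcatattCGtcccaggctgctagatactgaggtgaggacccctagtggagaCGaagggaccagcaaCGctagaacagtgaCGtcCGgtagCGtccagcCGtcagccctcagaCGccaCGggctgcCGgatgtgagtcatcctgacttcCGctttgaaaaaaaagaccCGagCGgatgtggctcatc
MAGEB6: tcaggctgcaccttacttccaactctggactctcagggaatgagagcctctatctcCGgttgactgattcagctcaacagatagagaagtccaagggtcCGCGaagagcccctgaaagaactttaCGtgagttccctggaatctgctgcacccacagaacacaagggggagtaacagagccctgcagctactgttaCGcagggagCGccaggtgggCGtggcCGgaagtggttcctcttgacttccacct
MAGEB1: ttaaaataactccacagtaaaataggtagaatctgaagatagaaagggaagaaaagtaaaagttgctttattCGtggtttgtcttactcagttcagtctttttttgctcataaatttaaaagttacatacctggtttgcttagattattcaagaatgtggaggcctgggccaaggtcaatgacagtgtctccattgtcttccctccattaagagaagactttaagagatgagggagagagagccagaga
MAGEC1: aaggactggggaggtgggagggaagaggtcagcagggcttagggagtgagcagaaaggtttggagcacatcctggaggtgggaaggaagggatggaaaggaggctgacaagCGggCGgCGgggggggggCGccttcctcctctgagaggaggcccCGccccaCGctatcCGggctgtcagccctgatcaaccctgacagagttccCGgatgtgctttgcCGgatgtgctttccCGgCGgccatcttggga
MAGEC2: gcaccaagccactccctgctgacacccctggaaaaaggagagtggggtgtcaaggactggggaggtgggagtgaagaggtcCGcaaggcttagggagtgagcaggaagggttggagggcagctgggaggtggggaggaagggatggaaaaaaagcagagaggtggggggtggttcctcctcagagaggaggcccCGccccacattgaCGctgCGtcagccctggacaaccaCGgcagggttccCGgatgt
MAGEA6: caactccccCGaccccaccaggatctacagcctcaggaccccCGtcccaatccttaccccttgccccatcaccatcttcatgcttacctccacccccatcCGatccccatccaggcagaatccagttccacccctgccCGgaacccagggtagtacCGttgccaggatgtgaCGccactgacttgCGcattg
The printed stretches hold 15 CG dinucleotides in MAGEB2, 11 in MAGEC1, 8 in MAGEB6, 7 in MAGEA6, 6 in MAGEC2 and 1 in MAGEB1. Over the full 250 upstream bases of the table, MAGEA6 and MAGEB2 had 15 CG each, and the median of all 35116 promoters was 11. MAGEA6 and MAGEA3 were identical over these 250 bases. MAGEB1 has a second entry, further into the gene, with 13 CG in its 250 upstream bases.

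Short motifs were counted on both strands in the 250 upstream bases of each entry. The ETS core GGAA was present in all 9 genes and in 92.7% of all promoters. Its longer form CCGGAA, which contains GGAA, was present in MAGEA3, MAGEA6 and MAGEB6, against 14.5% of all promoters. The GC box GGGCGG was found in MAGEA4, MAGEC1 and MAGEC2, and in 42.6% of all promoters. The letters GGATGTG, chosen after the sequences had been read, occurred in at least 1 entry of 7 of the 9 genes (MAGEA3, MAGEA4, MAGEA6, MAGEA12, MAGEB1, MAGEB2 and MAGEC1) and in 3.52% of all promoters. A listed gene counted if any of its entries had the motif (15 entries for 9 genes), while the shares of all promoters count single entries. The units are therefore unlike. MAGEB1 had GGATGTG only in its second entry, and MAGEA4 lacked GGGCGG in its first. The MAGEA genes are close copies of each other, so these matches are not independent.

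The libraries held 13148881 to 28528757 reads assigned to transcripts, and mitochondrial ribosomal RNA took 13.1% to 63.8% of them. In ELF-153 at 96 h that share was 37.3% to 49.8% with DAC and 13.1% to 35% untreated, and in UCSD-AML1 at 96 h 61.7% to 63.8% with DAC and 49.3% to 51.3% untreated. At 144 h it was 42.8% to 53.6% with DAC and 16.6% to 38.2% untreated in ELF-153, and the groups overlapped in UCSD-AML1 (38.7% to 58.4% with DAC, 44.5% to 52.1% untreated). Its part in the results below was tested only as a covariate. Of 8 blood progenitor markers, 6 or 7 reached a group mean of 10 scaled reads in every group, and MPO was at or near 0 throughout. Their sum at 96 h was 1550 with DAC and 1650 untreated in ELF-153, and 3920 with DAC and 7210 untreated in UCSD-AML1; at 144 h it was 1280 with DAC and 1740 untreated in ELF-153, and 2360 with DAC and 5740 untreated in UCSD-AML1. Among these, MECOM had 4086, 3993 and 3927 untreated and 1822, 2006 and 1723 with DAC in UCSD-AML1 at 96 h. In ELF-153 at 96 h MECOM had at most 3.07 in any library. RUNX1 moved the other way in UCSD-AML1 at 96 h, with 214, 267 and 360 untreated and 845, 583 and 661 with DAC. Of 3 B-cell markers 1 reached a mean of 10 in every group, with sums of 60.2 to 306. Of 3 fibroblast markers 1 or 2 did, with sums of 186 to 361. The B-cell gene CD79A averaged 82.4 with DAC and 138 untreated in ELF-153, and 104 with DAC and 290 untreated in UCSD-AML1, at 96 h. The fibroblast collagen gene COL1A1 averaged 5.58 with DAC and 0.683 untreated in ELF-153, and 29.3 with DAC and 2.75 untreated in UCSD-AML1, at 96 h. The fibroblast marker PDGFRB moved the other way. At 96 h it had 171, 169 and 128 with DAC and 404, 354 and 318 untreated in UCSD-AML1. In ELF-153 it had 198, 171 and 192 with DAC and 222, 275 and 232 untreated. The fibroblast sum in UCSD-AML1 at 96 h was 186 with DAC and 361 untreated. Of 3 epithelial markers none reached that level in any group, and EPCAM was at 0 in all 8 groups. The B-cell marker MS4A1 was at 0 in all 8 groups. Among the 3 T-cell markers CD3E stayed at or near 0. CD2, a T-cell adhesion gene, moved with DAC in the same direction as the MAGE genes. It averaged 134 ± 30.2 scaled reads in ELF-153 with DAC, against 7.91 ± 2.85 untreated, and 827 ± 181 in UCSD-AML1 with DAC, against 39.2 ± 0.911 untreated (96 h, SD, n = 3 each). The summed T-cell markers averaged 332 and 148 in ELF-153 with DAC and untreated, and 838 and 42.8 in UCSD-AML1 with DAC and untreated, at 96 h. At 144 h they averaged 383 and 162 in ELF-153 with DAC and untreated, and 672 and 58 in UCSD-AML1 with DAC and untreated. The part of these markers in the MAGE results was not tested.

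All levels below are scaled reads: reads assigned to the gene's transcripts, divided by the authors' size factor of the library. Scaling was done separately for each harvest, so values of the 2 harvests stand side by side and are not tested against each other. In bulk RNA, fewer cells expressing a gene and less RNA per cell cannot be told apart.

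Without DAC the MAGE genes had few reads or were listed at 0. The 12 untreated libraries held 17 reads of the 10 genes in all, 0 to 4 per library, and 4 of these libraries held none. The 12 DAC libraries held 11484. A count of 0 in a library allows up to 3 reads, which is 1.05e-05% to 2.28e-05% of its assigned reads (counting error only).

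The broadly expressed genes TRIM27 and PJA1 were also listed at 0 in all 24 libraries, so a 0 in these tables does not by itself show that a gene was silent. Of the few untreated reads, 9 were MAGEB2 reads in UCSD-AML1. At 96 h, MAGEB2 had 0, 0 and 0 scaled reads in untreated ELF-153 libraries, against 4.19, 0.917 and 1.58 in untreated UCSD-AML1 libraries. The ELF-153 value was lower (log2 difference −1.56 ± 0.36, SE, on the log2(value + 1) scale; adjusted p = 0.00209, limma across all 18799 features tested). It was the 1 gene of 7 tested that differed between the untreated lines at 96 h, where 34.7% of all features were lower in ELF-153. The call rests on 7 reads and was lost with a pseudocount of 8 (adjusted p = 0.163). MAGEB6 was the other gene with several untreated reads at 96 h, with 0, 4.1 and 0.911 scaled reads in untreated ELF-153 and 0 in every untreated UCSD-AML1 library. Its difference of 1.09 ± 0.52 did not pass the test (adjusted p = 0.0842, limma). Without ELF-153 untreated replicate 1 it did (1.64, adjusted p = 0.00972), as it did in edgeR, in DESeq2 and with the mitochondrial covariate. At 144 h, where 51.8% of all features differed between the untreated lines, none of the 7 tested genes passed (limma, 0 of 7 also at an unadjusted p under 0.05; 0 in edgeR and DESeq2), with MAGEB2 at 0.356 ± 0.616 in untreated ELF-153 and 0.614 ± 0.533 in untreated UCSD-AML1 (SD, n = 3 each). MAGEA1 had 1 untreated read, in UCSD-AML1 at 96 h (difference −0.31 ± 0.51, adjusted p = 0.626, limma). MAGEA3, MAGEA4, MAGEA6, MAGEA12, MAGEB1, MAGEC1 and MAGEC2 had none in any untreated library.

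With DAC, 7 of the 10 genes rose in both lines at both harvests. The mean level with DAC lay between 32.1 (MAGEB1) and 798 (MAGEB2) scaled reads in ELF-153 and between 2.01 (MAGEB1) and 107 (MAGEC2) in UCSD-AML1 at 96 h. A gene was tested where at least 3 of the 12 libraries of a harvest reached 10 scaled reads. The 7 genes reached that minimum through DAC libraries alone, so a gene of this list that passed the filter had to differ. The count, and the p-values of the DAC effects of these genes given below, are therefore descriptions. MAGEA3, MAGEA4 and MAGEA12 did not reach it.

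**Figure D1:**
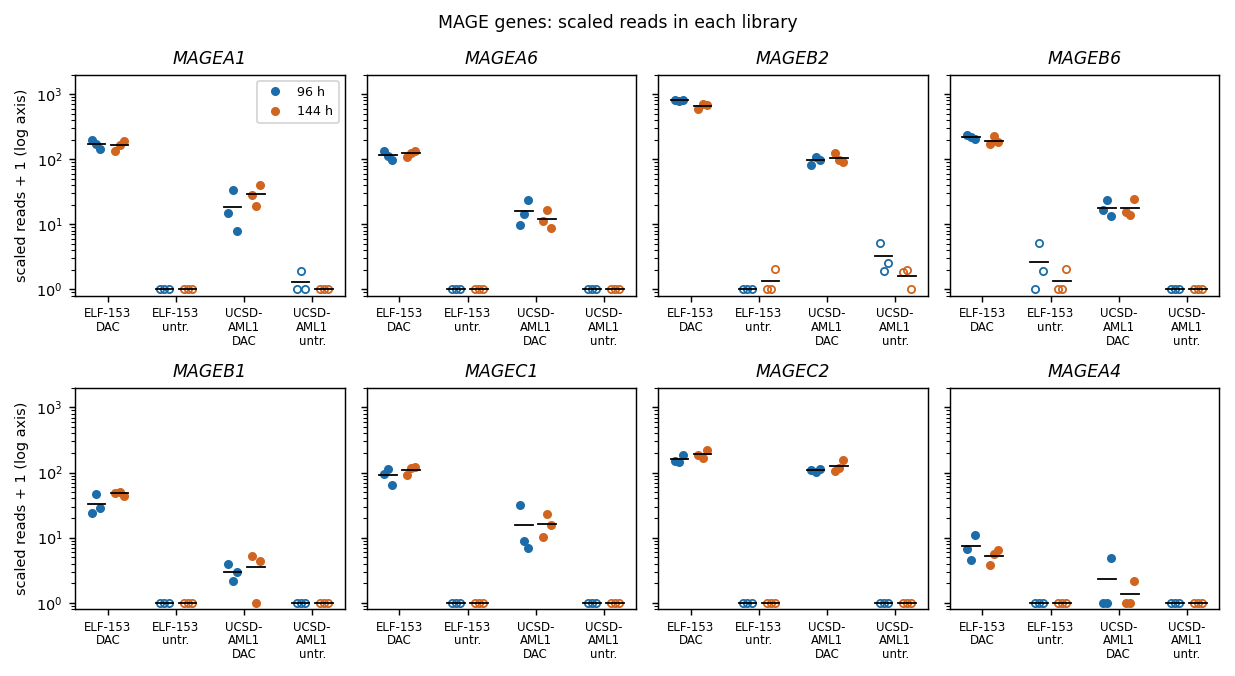
Scaled reads + 1 (log axis) of 8 MAGE genes in each library, with groups along the x axis, filled points for DAC, open points for untreated (untr.), colours for the harvest and black bars for the group mean of 3 libraries. Filled points of ELF-153 lie above those of UCSD-AML1 for every gene shown except some MAGEA4 libraries at 96 h, and the narrowest gap is in MAGEC2.

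At 96 h, 7 genes were called higher with DAC in ELF-153 and 7 in UCSD-AML1 (adjusted p below 0.05, limma), where 20.1% and 19.7% of all features tested were called higher. The median log2 change of the 7 genes was 6.83 in ELF-153 and 3.9 in UCSD-AML1, beside medians of 0.16 and −0.02 over all features. With near-silent genes at their bound or ratio, the median fold was 131 in ELF-153 and 18.4 in UCSD-AML1. At 144 h, 7 genes were called higher in each line, where 20.4% of features in ELF-153 and 20% in UCSD-AML1 were. The median log2 change at 144 h was 7.24 in ELF-153 and 4.13 in UCSD-AML1, beside 0.11 (ELF-153) and −0.12 (UCSD-AML1) over all features. The median fold with genes at their bound was then 169 in ELF-153 and 16.5 in UCSD-AML1. A bound sets a group without reads at 3 reads over its 3 libraries, and a ratio with 1 to 3 untreated reads carries a 95% counting interval.

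Among the MAGE-B genes of the short arm of the X chromosome, MAGEB2 reached the highest level per kilobase of transcript. In ELF-153 at 96 h it had 811, 770.1 and 813 scaled reads with DAC, against 0, 0 and 0 untreated. All 3 DAC libraries lay within a narrow band far above the untreated ones, and the gene was at least 788-fold higher (log2 change 9.64 ± 0.36, adjusted p = 3.06e-10, limma). In UCSD-AML1 at 96 h the DAC libraries had 79.7, 109 and 96.2, against 4.19, 0.917 and 1.58 untreated. The groups did not overlap, and the means differed 42.6-fold (5.01 ± 0.36, adjusted p = 2.1e-07). At 144 h ELF-153 held 589, 716 and 692 with DAC, against 0, 0 and 1.07 untreated, a ratio of 2100 with an interval of 376 to 82800 (9.03 ± 0.38, adjusted p = 3.39e-09). UCSD-AML1 held 123, 96.2 and 91.2 with DAC, against 0.884, 0.959 and 0 untreated, a ratio of 158 with an interval of 43.3 to 1310 (6.07 ± 0.38, adjusted p = 1.52e-07).

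MAGEB6 lies on the same arm and ranked second per kilobase in ELF-153. At 96 h it had 235, 218 and 202 scaled reads with DAC in ELF-153, against 0, 4.1 and 0.911 untreated. The means differed 131-fold (log2 change 6.68 ± 0.52, adjusted p = 3.52e-07, limma). UCSD-AML1 had 15.7, 22.5 and 12.6 with DAC and 0 in each untreated library, which is at least 18.4-fold higher (4.13 ± 0.52, adjusted p = 3.23e-05). No UCSD-AML1 library came near the lowest ELF-153 library with DAC. At 144 h the values were 171, 225 and 182 with DAC in ELF-153, against 0, 0 and 1.07 untreated (7.24 ± 0.42, adjusted p = 4.28e-08). In UCSD-AML1 they were 14.3, 13.1 and 23.6 with DAC and 0 untreated (4.13 ± 0.42, adjusted p = 8.25e-06).

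MAGEB1 had the lowest counts of the 7 tested genes. At 96 h it had 22.7, 46.2 and 27.4 scaled reads with DAC in ELF-153, at least 32.2-fold above untreated libraries that all stood at 0 (log2 change 4.99 ± 0.42, adjusted p = 8.76e-07, limma). UCSD-AML1 had 2.95, 1.12 and 1.94 with DAC, which are 6 reads in all, and 0 untreated (1.54 ± 0.42, adjusted p = 0.0105). At 144 h ELF-153 had 47.5, 49.5 and 42.8 with DAC and 0 untreated (5.57 ± 0.54, adjusted p = 4.01e-06). UCSD-AML1 had 4.2, 0 and 3.38 with DAC, 8 reads in all, and 0 untreated, so that the groups overlapped at 0 (1.5 ± 0.54, adjusted p = 0.037). That last call was lost with a pseudocount of 8, a filter of 1 or no filter, in the 6 libraries of the line alone, and without any 1 of the 6 libraries except DAC replicate 2. The adjusted p then lay between 0.0596 and 0.15. The MAGEB1 call in UCSD-AML1 at 96 h was also lost with a pseudocount of 8 (adjusted p = 0.257).

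The MAGE-C genes of the long arm differed from each other. MAGEC2, whose protein binds TRIM28, had 149, 142 and 183 scaled reads with DAC in ELF-153 at 96 h, against 0, 0 and 0 untreated. It was at least 155-fold higher (log2 change 7.30 ± 0.33, adjusted p = 1.92e-09, limma). In UCSD-AML1 at 96 h it had 109, 100.0 and 112 with DAC, against 0, 0 and 0 untreated, at least 118-fold higher (6.75 ± 0.33, adjusted p = 1.07e-08). Both lines thus lay within 100.0 to 183 scaled reads with DAC. At 144 h the values were 183, 166 and 222 with DAC in ELF-153 and 106, 117 and 155 in UCSD-AML1, with 0 in all 6 untreated libraries. The bounds were 198-fold in ELF-153 (7.57 ± 0.33, adjusted p = 4.21e-09) and 124-fold in UCSD-AML1 (6.97 ± 0.33, adjusted p = 1.76e-08).

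MAGEC1, a larger relative of MAGEC2 known as an antigen of myeloma, had 92.8, 114 and 63.6 scaled reads with DAC in ELF-153 at 96 h, against 0 in each untreated library (at least 90.2-fold; log2 change 6.47 ± 0.53, adjusted p = 5.91e-07, limma). UCSD-AML1 had 30.5, 7.87 and 5.83 with DAC and 0 untreated (at least 16.6-fold; 3.63 ± 0.53, adjusted p = 0.000116). The UCSD-AML1 libraries spread widely, with replicate 1 well above the others. At 144 h ELF-153 had 90.5, 117 and 122 with DAC and UCSD-AML1 had 9.24, 21.9 and 14.6, with 0 in all untreated libraries. The log2 changes were 6.78 ± 0.40 (adjusted p = 4.6e-08) in ELF-153 and 3.95 ± 0.40 (adjusted p = 7.67e-06, limma) in UCSD-AML1.

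MAGEA1, the founding member of the family and the first tumour antigen shown to be seen by human cytotoxic T cells, had 199, 167 and 144 scaled reads with DAC in ELF-153 at 96 h, against 0, 0 and 0 untreated. It was at least 168-fold higher (log2 change 7.41 ± 0.51, adjusted p = 1.19e-07, limma). In UCSD-AML1 at 96 h it had 13.8, 32.6 and 6.8 with DAC, against 0, 0.917 and 0 untreated. With 1 untreated read, the ratio was 56.4 with an interval of 9.67 to 2270 (3.66 ± 0.51, adjusted p = 8.61e-05). At 144 h ELF-153 had 134, 163 and 190.0 with DAC and 0 untreated (7.34 ± 0.39, adjusted p = 2.08e-08). UCSD-AML1 had 26.9, 18.4 and 39.4 with DAC and 0 untreated (4.80 ± 0.39, adjusted p = 1.17e-06).

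MAGEA6, whose protein binds TRIM28 and directs it to the energy sensor kinase AMPK, had 134, 112 and 96.9 scaled reads with DAC in ELF-153 at 96 h, against 0 untreated (at least 113-fold; log2 change 6.83 ± 0.41, adjusted p = 3.15e-08, limma). UCSD-AML1 had 8.85, 13.5 and 22.3 with DAC and 0 untreated (at least 16.6-fold; 3.9 ± 0.41, adjusted p = 6.93e-06). At 144 h the DAC libraries had 109, 124 and 134 in ELF-153 (6.94 ± 0.38, adjusted p = 2.67e-08) and 10.1, 15.8 and 7.88 in UCSD-AML1 (3.56 ± 0.38, adjusted p = 1.16e-05), with 0 untreated. No library of either line had a MAGEA6 read without DAC.

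MAGEA3, the near-copy of MAGEA6 and a target of cancer vaccines, had 0 reads in all 24 libraries, on both of its transcripts. MAGEA4, a target of engineered T-cell therapy, had 5.68, 3.49 and 9.78 scaled reads with DAC in ELF-153 at 96 h and 0 untreated, at least 6.13-fold higher with no test. UCSD-AML1 had MAGEA4 reads in 1 library with DAC, at 3.88 scaled reads. At 144 h ELF-153 had 2.74, 4.59 and 5.49 with DAC, and UCSD-AML1 1.13 in 1 library. MAGEA12 had 1 read at 96 h and 2 reads at 144 h, each in an ELF-153 library with DAC.

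Shared sequence limits what a count can show for MAGEA3, MAGEA4, MAGEA6 and MAGEA12. Each transcript was cut into all windows of 50 bases, and each window was looked up in the other transcripts of the tables. The lead transcript of MAGEA6, ENST00000329342, had 23.3% of its windows to itself and shared 58% with another gene, mainly MAGEA3. The lead transcript of MAGEA3, ENST00000370278, had 27% to itself and shared 58.1% with another gene, mainly MAGEA6. The 2 lead transcripts were identical at 1700 of 1740 aligned positions (97.7%). MAGEA12 had 4.4% unique windows on its lead transcript, 79.6% shared among its own transcripts and 16% shared with another gene, mainly MAGEA2B. MAGEA4 had 15% unique windows on its lead transcript, with 14 transcripts in the tables. The sources used here do not state how the authors counted a read that matches several transcripts. Rows without a GENCODE 29 entry carry no gene name, so a MAGEA3 transcript among them would not be counted. The 0 of MAGEA3 is therefore listed as 0 and not read as absence, and the MAGEA6 reads cannot be told apart from reads of MAGEA3 where the sequences are shared.

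The remaining genes, except MAGEB1, had most windows of their lead transcript to themselves. MAGEB2 had 100% unique windows, MAGEC2 99.9%, MAGEA1 99.3%, MAGEB6 91.6% (8.4% shared, mainly with MAGEB6B) and the lead transcript of MAGEC1 76.6%. MAGEB1 shared 94% of its lead transcript with its own other transcripts and none with another gene, and how reads on several transcripts of a gene were counted is not stated. At 96 h the MAGEB1 reads were 63 on ENST00000397548, of 111 in all.

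**Figure D2:**
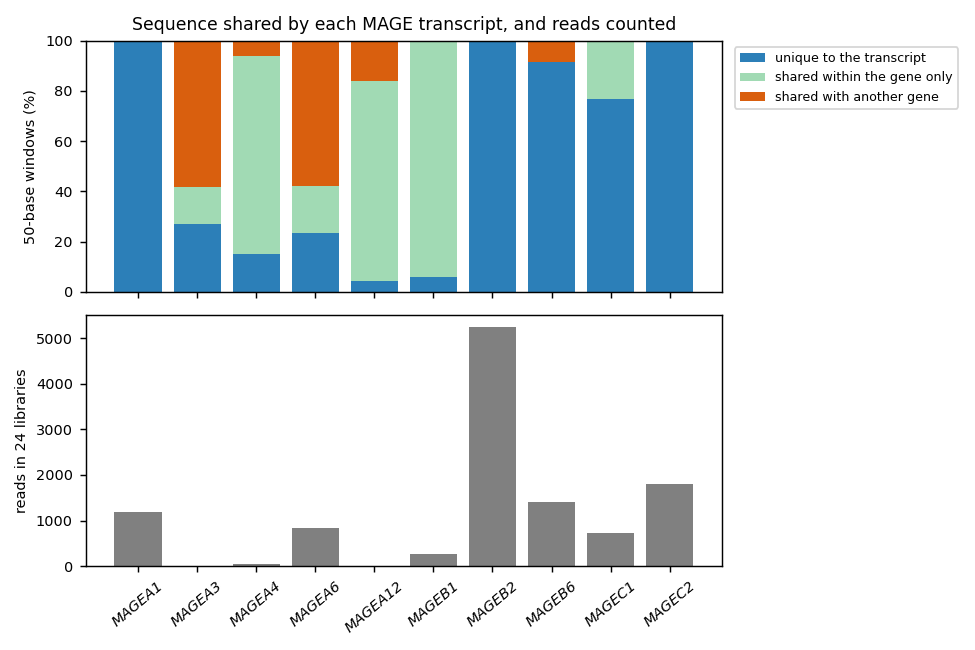
Upper panel: share of 50-base windows of the lead transcript (%) that are unique to it, shared only within the gene, or shared with another gene, for each of the 10 MAGE genes. Lower panel: reads summed over the 24 libraries. MAGEA3 and MAGEA12 have 0 and 3 reads and, with MAGEA4, MAGEA6 and MAGEB1, at most 27% unique windows, while MAGEB2 and MAGEC2 have nearly all windows to themselves.

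Per kilobase of the lead transcript, MAGEB2 ranked first in all 4 DAC groups, at 496 ± 15 scaled reads per kb in ELF-153 and 59 ± 9.13 in UCSD-AML1 at 96 h (SD, n = 3 each). In ELF-153 at 96 h the order went on with MAGEB6 (112 ± 8.57), MAGEA1 (99.4 ± 16.2), MAGEC2 (79.3 ± 11) and MAGEA6 (65.5 ± 10.6). Neighbours in this run differed by less than the sum of their SDs, except that MAGEB2 stood apart. In UCSD-AML1 at 96 h MAGEC2 came second (53.7 ± 3.09 scaled reads per kb) and lay within the spread of MAGEB2, followed at a distance by MAGEA1 (10.4 ± 7.81), MAGEB6 (8.7 ± 2.58) and MAGEA6 (8.56 ± 3.94). At 144 h the first places were held by MAGEB2 (413 ± 42) and MAGEB6 (98.9 ± 14.6) in ELF-153, and by MAGEB2 (64.2 ± 10.5) and MAGEC2 (63.4 ± 13) in UCSD-AML1. Counting per kilobase of unique windows instead raised MAGEA6 to 206 in ELF-153 at 96 h, second to MAGEB2 at 511, and MAGEB1 to 117, beside 125 for MAGEB6. At 144 h it gave 426 for MAGEB2, 221 for MAGEA6, 170.0 for MAGEB1 and 111 for MAGEB6 in ELF-153. This measure leaves out windows shared among a gene's own transcripts but keeps all reads of the gene. It therefore overstates genes with overlapping transcripts. MAGEB1, with 3 transcripts, had 5.3% unique windows and 1% shared with another gene.

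With DAC, 6 of the 7 tested genes stood higher in ELF-153 than in UCSD-AML1 at each harvest, and MAGEC2 did not pass. MAGEA3, MAGEA4 and MAGEA12 were not tested. All 7 reached the filter through the 3 ELF-153 libraries with DAC, and no UCSD-AML1 library reached it for MAGEB1, whose higher call in ELF-153 was fixed by the filter here and in the interaction below. MAGEA6 and MAGEC1 at both harvests, and MAGEA1 at 96 h, also had fewer than 3 UCSD-AML1 libraries at the minimum, so the count of 6 is a description. Of all features tested, 20.6% were called higher in ELF-153 with DAC than in UCSD-AML1 with DAC at 96 h and 29.7% at 144 h. At 96 h the ratio of mean levels was 12.9 for MAGEB6 (218 ± 16.7 in ELF-153 and 16.9 ± 5.04 in UCSD-AML1), 9.59 for MAGEA1 (170 ± 27.6 in ELF-153 and 17.7 ± 13.3 in UCSD-AML1) and 8.4 for MAGEB2 (798 ± 24.2 in ELF-153 and 95 ± 14.7 in UCSD-AML1). It was 7.65 for MAGEA6, 6.12 for MAGEC1 and 16 for MAGEB1. On the log2 scale these 6 differences ran between 2.84 ± 0.53 (MAGEC1, adjusted p = 0.000572) and 3.64 ± 0.52 (MAGEB6, adjusted p = 5.68e-05, limma). At 144 h the ratios were 11.3 for MAGEB6, 10.9 for MAGEA6, 7.21 for MAGEC1, 6.44 for MAGEB2, 5.75 for MAGEA1 and 18.5 for MAGEB1, and the largest adjusted p of the 6 was 0.000156 (MAGEA1).

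MAGEC2 differed by a factor of 1.48 at 96 h, with 158 ± 21.9 scaled reads in ELF-153 with DAC and 107 ± 6.14 in UCSD-AML1 with DAC (SD, n = 3 each). Its log2 difference was 0.55 ± 0.33, with a 95% interval of −0.16 to 1.26 (adjusted p = 0.205, limma). At 144 h the factor was 1.51, with 190 ± 28.6 in ELF-153 and 126 ± 25.9 in UCSD-AML1, and the log2 difference 0.60 ± 0.33, with an interval of −0.12 to 1.31 (adjusted p = 0.159, limma). The 3 ELF-153 libraries lay above the 3 UCSD-AML1 libraries at both harvests. The outcome depended on the setting. At 96 h MAGEC2 passed with edgeR and TMM scaling (adjusted p = 0.0448), with DESeq2 (0.0477) and with a pseudocount of 8 (0.0428). At 144 h it passed with a pseudocount of 8 (0.0369) and under no other setting. Over all alternatives the adjusted p ran between 0.0428 and 0.439 at 96 h and between 0.0369 and 0.634 at 144 h.

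**Figure D3:**
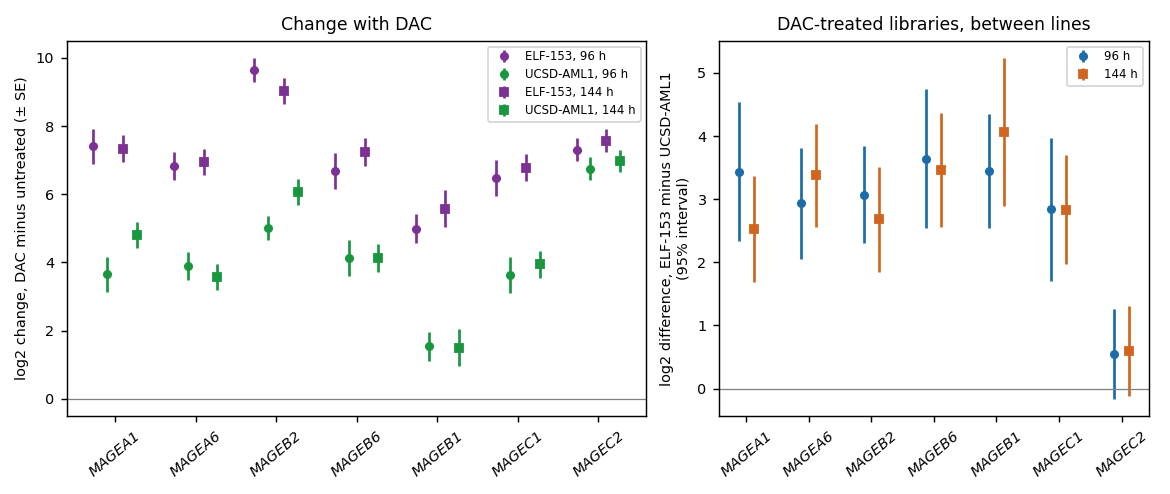
Left: log2 change on the log2(value + 1) scale, DAC minus untreated, with its standard error, for the 7 tested genes in each line and harvest. Right: log2 difference between DAC-treated ELF-153 and DAC-treated UCSD-AML1 libraries with its 95% interval. The intervals of MAGEC2 reach below 0, and those of the other 6 genes stay above 1.

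The difference between the DAC effects of the 2 lines was tested as an interaction. On the log2(value + 1) scale it was called higher in ELF-153 for 6 of 7 genes at each harvest, where 16.4% of features at 96 h and 19.4% at 144 h were called higher. MAGEC2 did not pass (0.55 ± 0.47, adjusted p = 0.414 at 96 h, and 0.60 ± 0.47, adjusted p = 0.343 at 144 h, limma). Because the untreated groups were at 0, the interaction of MAGEA6, MAGEB1, MAGEC1 and MAGEC2 (and at 144 h of MAGEA1) equalled the difference between the DAC-treated groups on this scale, which rests on the pseudocount. Count models gave other results: the interaction was called for 1 gene, MAGEB2, at 96 h and for 0 genes at 144 h with edgeR (TMM or RLE) and with DESeq2. The call for MAGEB6 at 96 h was also lost with a pseudocount of 0.5 (adjusted p = 0.112) and with the mitochondrial covariate (adjusted p = 0.0613, limma). In the same count models at least 6 of the 7 genes stayed higher in ELF-153 with DAC than in UCSD-AML1 with DAC.

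The make-up of the MAGE reads differed between the lines. The summed level of the 10 genes was 1590 ± 56.9 scaled reads in ELF-153 with DAC and 270 ± 15 in UCSD-AML1 with DAC at 96 h, and 1500 ± 145 in ELF-153 and 304 ± 28.7 in UCSD-AML1 at 144 h (SD, n = 3 each). MAGEC2 took 9.97% ± 1.67 of this sum in ELF-153 and 39.9% ± 4.32 in UCSD-AML1 at 96 h, and 12.8% ± 1.88 in ELF-153 and 41.3% ± 5.05 in UCSD-AML1 at 144 h. Library by library at 96 h, its share was 9%, 9% and 11.9% in ELF-153 and 41.9%, 34.9% and 42.8% in UCSD-AML1. MAGEB2 took 50.3% ± 2.17 in ELF-153 and 35.1% ± 3.97 in UCSD-AML1 at 96 h, and 44.5% ± 1.15 in ELF-153 and 34.3% ± 7.35 in UCSD-AML1 at 144 h. The ratio of MAGEC2 to MAGEB2 was 0.183, 0.185 and 0.225 in ELF-153 libraries and 1.37, 0.918 and 1.16 in UCSD-AML1 libraries at 96 h. At 144 h it was 0.311, 0.232 and 0.321 in ELF-153 and 0.863, 1.22 and 1.7 in UCSD-AML1. A ratio within a library does not depend on the scaling, and no library of one line overlapped the other. Each of these 4 measures gave p = 0.1 at each harvest in a two-sided exact permutation test, the smallest p that 3 against 3 libraries allow. The pair MAGEC2 and MAGEB2 was chosen after its values had been seen.

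**Figure D4:**
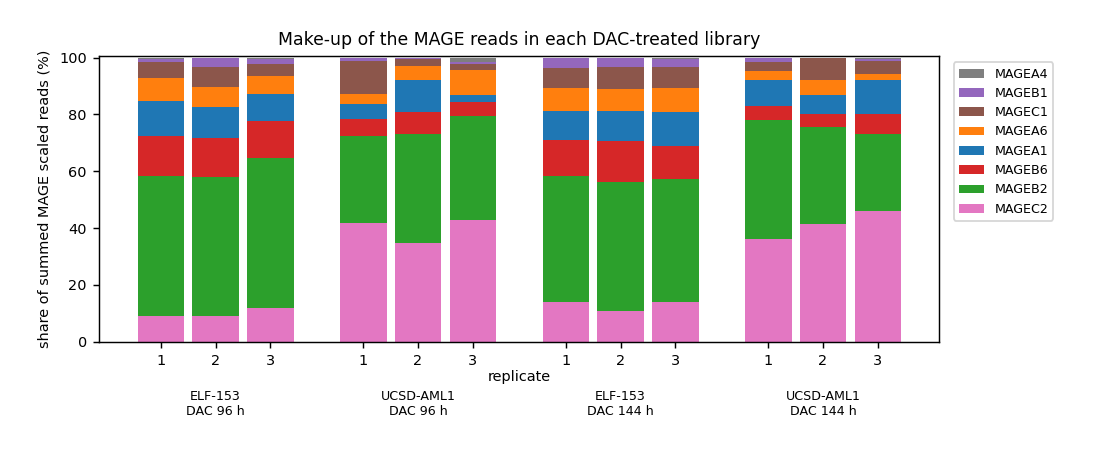
Share (%) of each MAGE gene in the summed scaled reads of the 10 genes, one bar per DAC-treated library, ordered by harvest and line. The MAGEC2 segment spans 9% to 13.9% of each ELF-153 bar and 34.9% to 46.2% of each UCSD-AML1 bar.

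Further lists of related genes were set beside the 10. Of all features tested, 12.7% fell with DAC in ELF-153 and 19.6% in UCSD-AML1 at 96 h, and 18% in ELF-153 and 26.2% in UCSD-AML1 at 144 h; the shares that rose stand above. Of 16 other type I MAGE genes, 3 were tested at 96 h: 3 rose in ELF-153 and 2 in UCSD-AML1. At 144 h 4 were tested, of which 4 rose in ELF-153 and 3 in UCSD-AML1. MAGEB10 had 204 ± 11.7 scaled reads in ELF-153 with DAC and 0 untreated, and 14.3 ± 5.47 in UCSD-AML1 with DAC and 0 untreated, at 96 h (log2 change 7.68 ± 0.39, adjusted p = 5.22e-09 in ELF-153; 3.87 ± 0.39, adjusted p = 4.7e-06 in UCSD-AML1; limma). MAGEB3, a close neighbour of MAGEB2, had 102 ± 9.69 in ELF-153 with DAC and 0.749 ± 1.3 in UCSD-AML1 with DAC at 96 h, with 0 untreated in both. At 144 h MAGEB3 had 73.4 ± 30.8 in ELF-153 and 6.87 ± 3 in UCSD-AML1, and the rise passed in both lines. MAGEB16 rose in both lines at both harvests, to 25.3 ± 9.84 scaled reads in ELF-153 and 5.42 ± 6.01 in UCSD-AML1 at 96 h, where 1 UCSD-AML1 library had 12.4 and the others 1.97 and 1.94. At 144 h it had 23.2 ± 6.65 in ELF-153 and 1.61 ± 0.715 in UCSD-AML1, where the 3 libraries held 5 reads. MAGEA10 was tested at 144 h alone and rose in ELF-153 (17.5 ± 1.67 with DAC and 0 untreated; adjusted p = 2.05e-06, limma). These genes, and NDN, PNMA5 and PASD1 below, reached the filter through DAC libraries alone, so their calls are descriptions as well.

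Type II MAGE genes share the MAGE homology domain but are expressed in many tissues. Of 12 listed, 6 were tested. At 96 h 2 rose and 2 fell in ELF-153, and 3 rose and 2 fell in UCSD-AML1; at 144 h 2 rose and 2 fell in each line. NDN, the gene of necdin, an imprinted growth suppressor, rose in both lines: it had 34.6 ± 7.91 scaled reads in ELF-153 with DAC, 7.93 ± 1.89 in UCSD-AML1 with DAC and 0 in untreated libraries of either line, at 96 h. MAGEF1 fell in both lines at both harvests, with 465 ± 14.1 in ELF-153 with DAC and 762 ± 162 untreated, and 335 ± 42.2 in UCSD-AML1 with DAC and 682 ± 49.4 untreated, at 96 h. MAGEH1 also fell in both lines at both harvests. NSMCE3, a subunit of the SMC5/6 DNA repair complex, differed between the lines, with 1320 ± 283 scaled reads in ELF-153 with DAC and 1490 ± 555 untreated, and 9640 ± 1470 in UCSD-AML1 with DAC and 3110 ± 405 untreated, at 96 h. In UCSD-AML1 its log2 change was 1.63 ± 0.24 (adjusted p = 0.000142, limma), and the ELF-153 change did not pass. The difference of effects, ELF-153 minus UCSD-AML1, was −1.77 ± 0.34 at 96 h (adjusted p = 0.00295) and −2.08 ± 0.29 at 144 h (adjusted p = 0.000377, limma), where 8.62% and 10.2% of features had a lower effect in ELF-153. MAGED2, a regulator of renal salt transporters, rose in ELF-153 at both harvests and in UCSD-AML1 at 96 h.

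Of 10 ligase partners and substrates of MAGE proteins, 7 were tested; at 96 h 1 rose in ELF-153 and 2 fell in UCSD-AML1, and at 144 h 1 rose and 3 fell in ELF-153 while 1 rose and 1 fell in UCSD-AML1. LNX1, a RING ligase, had 50.9 ± 8.05 scaled reads in ELF-153 with DAC and 5.12 ± 1.4 untreated at 96 h (log2 change 3.10 ± 0.47, adjusted p = 0.00019, limma). At 96 h LNX1 reached the filter through the ELF-153 libraries with DAC alone, so this call is a description as well. TRIM28, the ligase partner of MAGEA6 and MAGEC2, had 226 ± 29.2 in ELF-153 with DAC and 335 ± 104 untreated, and 144 ± 25.1 in UCSD-AML1 with DAC and 218 ± 23.3 untreated, at 96 h. Its fall passed in UCSD-AML1 at 96 h (−0.60 ± 0.22, adjusted p = 0.0472) and in ELF-153 at 144 h (−0.59 ± 0.20, adjusted p = 0.0337, limma). DCAF12, a ubiquitin ligase receptor that controls MAGE protein turnover, fell in UCSD-AML1 at both harvests and in ELF-153 at 144 h. USP7, a deubiquitinase, rose in UCSD-AML1 at 144 h, and NSMCE1 fell in ELF-153 at 144 h.

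Among 12 regulators of DNA methylation and MAGE promoters, 10 were tested. At 96 h 5 fell in ELF-153 and 3 in UCSD-AML1; at 144 h 5 fell and 1 rose in ELF-153, and 4 fell in UCSD-AML1. DNMT1, the maintenance methyltransferase, fell in both lines at both harvests, with 176 ± 15 scaled reads in ELF-153 with DAC and 427 ± 48.4 untreated, and 110 ± 21.1 in UCSD-AML1 with DAC and 238 ± 15.3 untreated, at 96 h. DNMT3B, a de novo methyltransferase, fell in the same 4 comparisons, with log2 changes between −2.83 and −1.89. TET1, which oxidises methylated cytosine, did so as well, with changes between −2.55 and −1.20. ETS2, an ETS transcription factor, and CTCF, an insulator protein, fell in ELF-153 at both harvests, and TET2 rose in ELF-153 at 144 h. CTCFL, the germ-cell paralogue of CTCF that can bind MAGE promoters, had at most 2 reads in any group.

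Genes next to the MAGEA cluster on Xq28 varied. Of 13 listed, 4 were tested: 3 rose in ELF-153 at each harvest, 2 rose in UCSD-AML1 at each harvest, and 1 fell in UCSD-AML1 at 144 h. PNMA5, a paraneoplastic antigen family gene, had 208 ± 19.1 scaled reads in ELF-153 with DAC and 0 untreated, and 35.9 ± 22.6 in UCSD-AML1 with DAC and 0.263 ± 0.455 untreated, at 96 h. PASD1, another cancer-testis antigen, rose in both lines at both harvests. ZNF185 rose in ELF-153, with 22.3 ± 6.03 with DAC and 0.395 ± 0.684 untreated at 144 h, while UCSD-AML1 had 226 ± 49 with DAC and 177 ± 48.5 untreated. The difference of effects passed for ZNF185 at 96 h (2.39 ± 0.43, adjusted p = 0.00181) and at 144 h (3.77 ± 0.51, adjusted p = 0.000315, limma). CETN2, a centrosome gene, was the one that fell. In UCSD-AML1 at 144 h it had 67.2, 57.7 and 18 scaled reads with DAC, against 317, 325 and 70.4 untreated. Replicate 3 was the lowest in both groups, and its untreated library lay close to the DAC libraries.

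**Figure D5:**
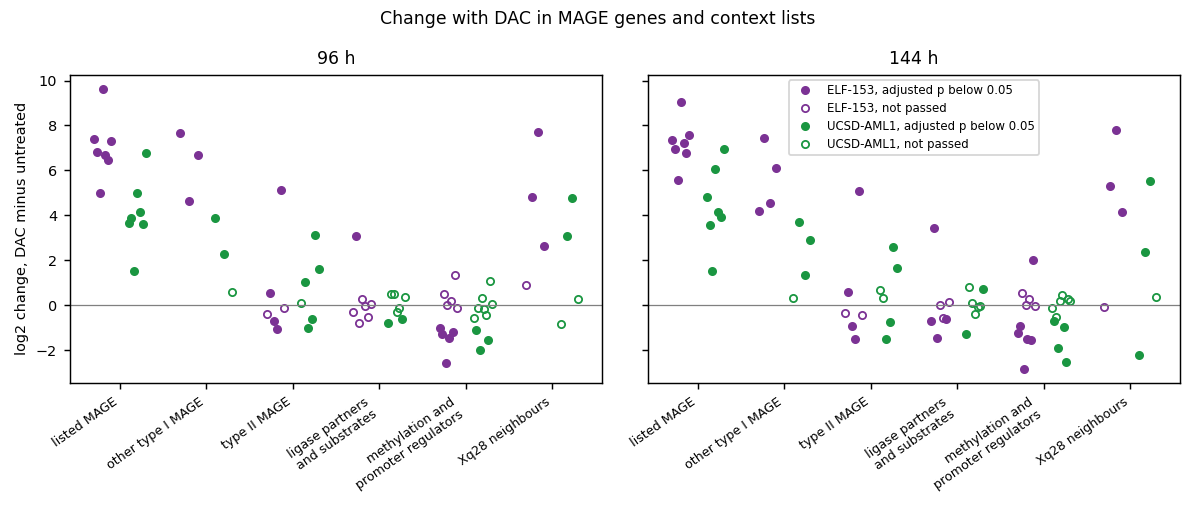
Log2 change on the log2(value + 1) scale, DAC minus untreated, of each tested gene in the 10 listed MAGE genes and 5 context lists, at 96 h (left) and 144 h (right). Filled points passed an adjusted p of 0.05 and open points did not; the listed MAGE genes all lie above 0, while type II genes, partners and regulators fall on both sides of 0.

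Across the 12 libraries of each harvest, some genes outside the list followed the mean log2 profile of the 7 tested MAGE genes most closely, among 17833 genes tested at both harvests. Among the closest were MYL9, a myosin light chain gene (mean Pearson r 0.998), TSPYL6 (0.998), DMRTB1 (0.995), HBE1, the embryonic globin gene (0.994), and NDN (0.994). The listed genes themselves had r between 0.933 (MAGEB1) and 0.992 (MAGEA1 and MAGEA6) with a mean that includes them. The libraries share the 4 group levels of each harvest, so r mainly records near-zero untreated levels and a higher level in ELF-153 with DAC than in UCSD-AML1 with DAC.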

How the data were processed

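Paired-end reads of 24 libraries came from a HiSeq 2500; the stranded kit removed ribosomal RNA, per the labels. The values deposited by the authors are signal: per transcript and library, reads divided by a size factor, scaled within each harvest. The submitters' processing notes give hg19 as build and list STAR, TopHat2, HTSeq, FastQC and DESeq2, without roles or versions. Dividing by each library's smallest step gave whole reads for 100% of the values above 0 (tolerance 0.01). Of 204940 transcripts 181859 (88.7%, 97.8% of the value) matched 52994 genes in GENCODE release 29 (GRCh38), used for names and sequences, and the 23081 others were tested as their own features. A table of repeat elements was not used.

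The main test was limma 3.58.1 (R 4.3.3; one mean per group, fitted to the 12 libraries of each harvest, with robust eBayes and an intensity trend) on log2(gene sum + 1). Features needed 3 libraries at 10 or above. P-values had Benjamini-Hochberg adjustment over all features and a threshold of 0.05. On recovered reads, edgeR 4.0.16 with TMM called 4358 features higher and 2914 lower with DAC in UCSD-AML1 and 3506 and 2684 in ELF-153 at 96 h, and 4435 and 3774 in UCSD-AML1 and 3517 and 3403 in ELF-153 at 144 h. DESeq2 1.42.0 and the other alternatives are listed in the closing section. Same-numbered DAC and untreated libraries had deviations correlated above 0.1 in all 3 pairs only in UCSD-AML1 at 144 h (0.13, 0.12 and 0.26; differently numbered up to 0.13), against 0.29, 0.32 and −0.04 in ELF-153 at 96 h. The main test is unpaired throughout, and a fit with the replicate number as a block is among the alternatives. Replicates differed by more than counting error (chi-square over its degrees of freedom 3.57 to 205). Scripts were tested on simulated data. All 10 listed genes are named in every comparison, with at most 6 genes of each context list, smallest adjusted p first, and the 6 most alike genes, of which 1 is not reported here. The genes and lists were chosen with earlier results of these data known. Other software was pandas 2.3.3, scipy 1.17.1, numpy 2.4.6, Biopython 1.88 and matplotlib 3.10.9 under Python 3.11.15.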

Additional observations from a re-analysis of the deposited data

Results flagged for a closer look

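The DAC effect differed between the lines in an interaction test (limma, adjusted p below 0.05 over all features) for 6 listed genes at each harvest. Of all features tested, 16.4% at 96 h and 19.4% at 144 h were called higher. All 6 genes passed the filter through DAC libraries alone, so the count is a description. No UCSD-AML1 library reached the minimum for MAGEB1, whose call was therefore fixed by the filter. At 96 h the log2 difference, ELF-153 minus UCSD-AML1, was 4.63 for MAGEB2, 3.75 for MAGEA1, 3.44 for MAGEB1, 2.93 for MAGEA6, 2.84 for MAGEC1 and 2.55 for MAGEB6. At 144 h it was 4.07 for MAGEB1, 3.38 for MAGEA6, 3.11 for MAGEB6, 2.96 for MAGEB2, 2.83 for MAGEC1 and 2.53 for MAGEA1. These values are on the log2(value + 1) scale with untreated levels at or near 0. In edgeR and DESeq2 the difference passed for MAGEB2 at 96 h and for none of the 7 genes at 144 h.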

How the results depend on the processing

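Of 1131 values of single genes recomputed under another setting, 1075 kept their direction and their side of the threshold, 44 lost the call, 9 gained it and 3 turned their sign. Many of these values were DAC effects of genes that passed the filter through DAC libraries alone, so the tally is a description. The settings were edgeR with TMM or RLE, DESeq2, pseudocounts of 0.5 and 8, a filter of 1 or none, TMM in limma, the mitochondrial rRNA share as covariate, protein-coding transcripts only, the 6 libraries of a line, the replicate block and leaving out each library. The count of genes called for the difference of DAC effects was 6 at each harvest and became 1 at 96 h and 0 at 144 h with edgeR (TMM and RLE) and DESeq2; the cause was not tested. The count for the untreated lines at 96 h was 1 and became 2 with edgeR (TMM and RLE), DESeq2, the mitochondrial covariate or without ELF-153 untreated replicate 1, and 0 with a pseudocount of 8; the cause was not tested. Reversed values were those of MAGEB6: the difference of effects at 96 h was −0.24 with edgeR TMM and −0.26 with edgeR RLE (adjusted p 0.515 and 0.522), and the untreated difference at 144 h was −0.17 with the mitochondrial covariate, none of them called. With single libraries left out, the number of genes called was 6 to 7 for the DAC effects (7 to 7 in UCSD-AML1 at 96 h), 5 to 6 for the difference of effects and for the DAC-treated lines, 1 to 2 for the untreated lines at 96 h and 0 to 0 at 144 h. In ELF-153, leaving out any 1 DAC library left MAGEB1 under the filter. The replicate block changed no call of a listed gene, also in UCSD-AML1 at 144 h, where 7 genes stayed called. TMM scaling in limma moved the median of all features by over 0.1 in some comparisons, and most in the DAC-treated lines at 144 h, to 0.02 in place of 0.38, where 67.2% of calls were higher against 47.6%. It moved the share of higher calls for the difference of effects to 53.7% from 65.6% (96 h) and to 51.9% from 65.6% (144 h), for the untreated lines at 96 h to 50.3% from 39.7%, and for DAC in UCSD-AML1 at 144 h to 53.7% from 43.3%, with no call of a listed gene changed. MAGEA4, MAGEA12 and MAGEB1 had under 10 reads per group in UCSD-AML1, near the limit of detection at these depths.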
